A study of Mus musculus with 12 samples.

Results

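Sodium, chloride, bicarbonate, phosphate and sulfate transport in the kidney was followed through 59 of the 18803 genes of the deposited expression table, in kidneys with and without deletion of the ubiquitin ligase gene Wwp2 in the proximal tubule and with and without UIR. The 59 are the genes whose symbols place them in the solute carrier families 4, 8, 9, 12, 13, 20, 24, 26 and 34, a rule that reads no expression value. The families had 11, 3, 11, 9, 5, 2, 5, 10 and 3 members, in that order. Of the 59, 56 are transporters. The symbols of the other 3, Slc9a3r1, Slc9a3r2 and Slc4a1ap, match the same pattern but belong to proteins that bind transporters, and they are described apart. By textbook location, 12 of the transporters were assigned to the proximal tubule, 5 to the thick ascending limb, 2 to the distal convoluted tubule, 8 to intercalated cells, and 29 to no single segment. These locations are background and were not measured in the whole-kidney RNA.

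A nephron recovers filtered salt in series. The proximal tubule takes up sodium together with phosphate, sulfate, citrate or, by exchange for protons, bicarbonate. The thick ascending limb and the distal convoluted tubule then reabsorb sodium chloride through related cotransporters that are the targets of loop and thiazide diuretics, and intercalated cells of the collecting duct exchange chloride for bicarbonate to set acid-base balance. Loss of these carriers is known to cause phosphate wasting, renal tubular acidosis and the salt-wasting Bartter and Gitelman syndromes.

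Whole kidneys of 4 groups of male mice aged 8 weeks on a C57BL/6J background were sequenced, with 3 libraries per group. WT stands for mice with floxed Wwp2 alleles (WWP2 fl/fl) and PTCKO for mice with a conditional Wwp2 knockout in the proximal tubule, each studied after sham surgery or after UIR, the abbreviation the labels use for the surgery studied as a cause of the passage from acute to chronic kidney injury. The Cre driver, and the time from surgery to collection, are not given in the sources used here. No label links a library with an individual mouse, and p-values therefore rest on the spread of the 3 libraries in a group, which may be partly technical.

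Library totals were 15495163 to 19645743 expected counts. The 59 genes together took 1.34% to 1.57% of counts in the sham libraries, 0.277% to 0.364% in WT UIR and 0.410% to 0.534% in PTCKO UIR. Libraries of a group correlated at 0.982 to 0.989. The libraries labelled PTCKO did not hold less Wwp2 than WT (edgeR adjusted p = 0.823 for a log2 fold change of -0.03 after sham, and adjusted p = 0.037 for 0.25 in the UIR groups), so every direction between genotypes below rests on the labels. Libraries also differed in beta globin copies: Hbb-b1 and Hbb-b2, of the haplotype known from strains other than C57BL/6, together stayed under 10 FPKM in WT sham 3, PTCKO sham 2 and all 3 PTCKO UIR libraries, while Hbb-bs and Hbb-bt, of the C57BL/6 haplotype, did so in WT sham 2 and WT UIR 3. In the other 5 libraries both pairs were at about 115 FPKM or more. The part of strain background in the genotype differences was not tested. Levels are given as FPKM, a fragment count normalised for transcript length and library size. Fold changes are log2 values from edgeR's quasi-likelihood test on counts with TMM scaling, which sets the libraries to a common level over most genes, and a gene was called at a Benjamini-Hochberg adjusted p under 0.05 over the 15322 genes tested. FPKM carries no such scaling, so FPKM ratios and fold changes differ. The median of all genes after UIR in WT was 0.11 on the TMM scale and 0.82 without scaling, and in PTCKO 0.06 and 0.57. In tissue RNA, fewer cells of a type and less RNA per cell cannot be told apart.

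Transporter levels covered a wide range. The highest value was 4792 FPKM, for Slc34a1, while 13 of the 56 transporters stayed under 1 FPKM in every library and 1, Slc24a2, was at 0 in all 12. A level of at least 1 FPKM in 3 or more libraries was reached by 44 of the 59 genes, and 55 had enough counts to be tested; Slc24a1, Slc24a2, Slc24a4 and Slc8a3 did not.

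After UIR in WT, 19 of the 55 tested genes were called higher (34.5%) and 24 lower (43.6%), beside 42.1% higher and 36.4% lower among all genes tested (78.6% in either direction). In PTCKO 16 were higher and 25 lower, beside 39.0% and 34.8% of all genes (73.8% in either direction). Between these lists, 13 genes were called higher in both genotypes and 22 lower in both. The share of all genes called the same way in both genotypes was not computed, so these counts cannot be read as particular to the members. Without scaling factors the counts were 27 higher and 18 lower in WT and 27 higher and 21 lower in PTCKO, so the balance of rises and falls depends on scaling. PTCKO against WT had 4 higher and 1 lower after sham (all genes, 5.23% and 5.50%) and 12 higher and 3 lower after UIR (all genes, 9.30% and 4.50%). For the interaction, the test of a difference in UIR change between genotypes, edgeR called 13 genes in the positive and 5 in the negative direction, beside 14.4% and 7.08% of all genes. The smaller counts moved when 1 library was left out. Genes higher in PTCKO after sham numbered 1 when WT sham 1, WT sham 3 or PTCKO sham 2 was omitted. The gene lower there was lost when any sham library, or library 1 of either UIR group, was omitted, and a second was called when PTCKO UIR 2 was. Genes lower in PTCKO after UIR numbered 1 when WT UIR 1 or PTCKO UIR 3 was omitted. Positive interactions numbered 8 when WT UIR 1 or PTCKO sham 2 was omitted, and with limma on FPKM or TPM. Negative interactions numbered 2 or 3 on omitting library 1 of WT sham or of either UIR group, library 2 of WT UIR or PTCKO sham, or library 3 of PTCKO UIR. A positive interaction means that PTCKO ended higher relative to its sham libraries than WT did.

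By segment, the 12 proximal genes were called lower in 12 of 12 cases in WT (median log2 fold change -3.04) and in 11 of 12 in PTCKO (-2.24), and 8 of them were called higher in PTCKO than in WT after UIR (median 1.03). The 29 transporters with no single segment, 25 of them tested, had 13 called higher and 4 lower in each genotype, with medians of 0.79 in WT and 0.38 in PTCKO.

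**Figure D1:**
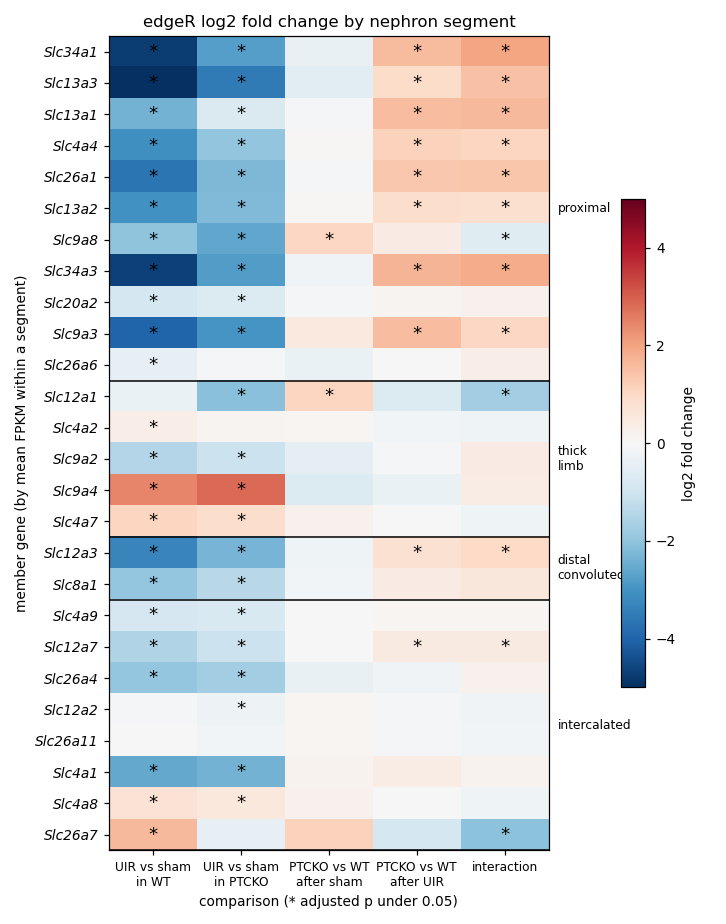
Log2 fold changes from edgeR for 26 transporters assigned to a segment (rows, by mean FPKM within a segment) in 5 comparisons (columns), with blue for lower, red for higher and a star for an adjusted p under 0.05. Proximal and distal convoluted rows are blue in both UIR columns, and 8 of 11 proximal rows are red and starred for PTCKO against WT after UIR; without scaling and with FPKM or TPM the blue of Slc26a6, Slc12a2 and, in PTCKO, Slc26a11 after UIR turned to a rise and that of Slc12a1 in WT to positive values that did not pass, without scaling that of Slc26a7 in PTCKO turned to 0.08, and with TPM that of Slc20a2 and Slc4a9 in WT turned to values just above 0.

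Proximal promoters are shown for 3 of these genes: Slc34a1 and Slc9a3, which fell after UIR and were higher in PTCKO than in WT after it, and Slc9a8, which was higher in PTCKO after sham. The sequences are the 250 bases before the start that RefSeq gives for each gene (build GRCm38.p6, plus strand), at chr13:55399398-55399647, chr13:74121163-74121412 and chr2:167421460-167421709; the annotated span of each gene begins upstream of that start. Capitals mark matches, on either strand, to GTTAAT (an HNF1 core motif), CACGTG (an E-box) or TGTTCT (the core of a glucocorticoid receptor site).
Slc34a1: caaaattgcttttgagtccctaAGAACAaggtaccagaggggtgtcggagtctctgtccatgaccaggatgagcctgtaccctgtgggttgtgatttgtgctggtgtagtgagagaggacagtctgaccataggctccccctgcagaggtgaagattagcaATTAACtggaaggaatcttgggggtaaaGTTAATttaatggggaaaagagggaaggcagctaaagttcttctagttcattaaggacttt
Slc9a3: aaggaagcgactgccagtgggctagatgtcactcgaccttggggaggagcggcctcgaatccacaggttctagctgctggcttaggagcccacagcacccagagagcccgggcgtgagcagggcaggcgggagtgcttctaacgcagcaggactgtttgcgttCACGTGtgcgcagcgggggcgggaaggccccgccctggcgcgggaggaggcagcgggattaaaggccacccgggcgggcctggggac
Slc9a8: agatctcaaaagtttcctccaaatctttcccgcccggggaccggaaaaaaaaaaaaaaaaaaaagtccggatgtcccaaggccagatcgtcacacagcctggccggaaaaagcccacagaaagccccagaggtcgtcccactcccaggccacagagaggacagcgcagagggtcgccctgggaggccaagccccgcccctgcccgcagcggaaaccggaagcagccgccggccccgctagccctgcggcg
In Slc34a1 the GTTAAT matches began 89 and 61 bases before the start and the TGTTCT match 228 bases before it. In Slc9a3 the CACGTG match began 87 bases before the start, and Slc9a8 had no match to these motifs. RefSeq promoters were found for 45 of the 59 genes. GTTAAT was present in 3 of the 45 and in 6.52% of 27025 mouse promoters, CACGTG in 5 of 45 and 6.05%, TGTTCT in 4 of 45 and 16.2%, and CAAAGTCC, an HNF4 motif, in 0 of 45 and 1.22%. For 9 proximal genes with a promoter, GTTAAT was in 1, CACGTG in 2 and TGTTCT in 1. The motifs do not overlap one another in these 3 windows, and a match describes letters only.

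Phosphate uptake at the proximal brush border rests on Slc34a1 (NaPi-IIa; chromosome 13, 55399622 to 55414695) and Slc34a3 (NaPi-IIc; chromosome 2, 25228897 to 25234270). Slc34a1 was at 4736, 4675 and 4792 FPKM in WT sham, 191, 423 and 261 in WT UIR, 3658, 3401 and 4331 in PTCKO sham and 804, 619 and 1097 in PTCKO UIR. Every UIR library was below every sham library, and every PTCKO UIR library was above every WT UIR library. Slc34a1 changed by -4.73 on the log2 scale in WT (SE 0.31, edgeR adjusted p = 8.47e-09) and less in PTCKO (-2.77, SE 0.28, adjusted p = 1.03e-06), with an interaction of 1.96 (SE 0.38, adjusted p = 0.00575). PTCKO exceeded WT after UIR by 1.58 (SE 0.27, adjusted p = 0.00254). After sham the 3 PTCKO libraries were all below the 3 WT libraries, but the difference of -0.38 did not pass (adjusted p = 0.358).

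The second brush border carrier, Slc34a3, was about 2 orders of magnitude less abundant, at 26.8, 25.6 and 24.5 FPKM in WT sham, 0.99, 2.26 and 1.66 in WT UIR, 22.6, 24.6 and 25.6 in PTCKO sham and 5.44, 3.55 and 5.99 in PTCKO UIR. It followed the same order of groups, with a fall of 4.66 in WT and 2.79 in PTCKO, PTCKO above WT after UIR by 1.69 (SE 0.26, edgeR adjusted p = 0.0015) and an interaction of 1.87 (adjusted p = 0.00371). Slc20a2 (PiT-2), a sodium-phosphate cotransporter of a separate family that is also found in proximal cells, was at 13.6, 12.5 and 12.3 FPKM in WT sham, 10.8, 12.5 and 11.3 in WT UIR, 12.8, 14.2 and 12.96 in PTCKO sham and 12.4, 10.5 and 13.1 in PTCKO UIR. Its FPKM ranges overlapped between sham and UIR. On the TMM scale it fell by 0.87 in WT and by 0.67 in PTCKO, calls that were lost without scaling factors and with limma on FPKM, and with TPM the WT value was 0.02. No difference between genotypes passed for Slc20a2 (0.13 after UIR, adjusted p = 0.414).

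Phosphate cotransporters outside the proximal list moved the other way or little. Slc20a1 (PiT-1), a widely expressed housekeeping form, was at 20.3, 23.6 and 24.7 FPKM in WT sham, 31.2, 36.8 and 33.4 in WT UIR, 21.5, 18.3 and 22.3 in PTCKO sham and 34.9, 42.1 and 43.3 in PTCKO UIR, higher in every UIR library than in every sham library of its genotype by FPKM. On the TMM scale its UIR change was -0.16 in WT (adjusted p = 0.173), which turned to 0.54 to 0.72 without scaling, with FPKM or with TPM, and 0.37 in PTCKO (adjusted p = 0.00547). Its interaction was 0.53 (edgeR adjusted p = 0.0235), lost when PTCKO UIR 3, PTCKO sham 2, WT UIR 1 or WT sham 3 was left out (0.45 to 0.49), without scaling, and with limma on FPKM or TPM. Slc34a2 (NaPi-IIb), the form known from intestine and lung, was at 0.42, 0.47 and 0.54 FPKM in WT sham, 5.59, 6.90 and 6.24 in WT UIR, 0.45, 0.73 and 0.73 in PTCKO sham and 9.29, 5.05 and 11.9 in PTCKO UIR. It rose from under 1 FPKM in all 6 sham libraries to at least 5.05 FPKM in all 6 UIR libraries, with log2 fold changes of 2.99 in WT and 3.27 in PTCKO (SE 0.32 and 0.31), and its genotype interaction did not pass (0.27, adjusted p = 0.701).

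As a share of the summed FPKM of the 5 sodium-phosphate cotransporters, Slc34a1 made up 98.7% ± 0.0215 in WT sham and 98.5% ± 0.134 in PTCKO sham (SD, n = 3). The share was 83.6% ± 4.10 in WT UIR and 92.5% ± 1.36 in PTCKO UIR. The WT UIR libraries lay at 79.7% to 87.9% and the PTCKO UIR libraries at 91.0% to 93.7%, without overlap. Slc20a1 took most of the difference, going from 0.477% ± 0.0472 to 10.4% ± 2.71 in WT and from 0.539% ± 0.0363 to 4.64% ± 1.35 in PTCKO. Slc20a2 went from 0.267% ± 0.0153 to 3.57% ± 0.967 in WT and from 0.351% ± 0.0585 to 1.37% ± 0.223 in PTCKO. Slc34a2 reached 1.92% ± 0.455 in WT UIR and 0.943% ± 0.176 in PTCKO UIR. Its mean level ran the other way, at 6.24 FPKM in WT UIR and 8.74 in PTCKO UIR. Shares depend on the sum of the 5, which was 239 to 481 FPKM in WT UIR and 680 to 1172 in PTCKO UIR. Slc34a3 kept between 0.413% and 0.710% in all 12 libraries.

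**Figure D2:**
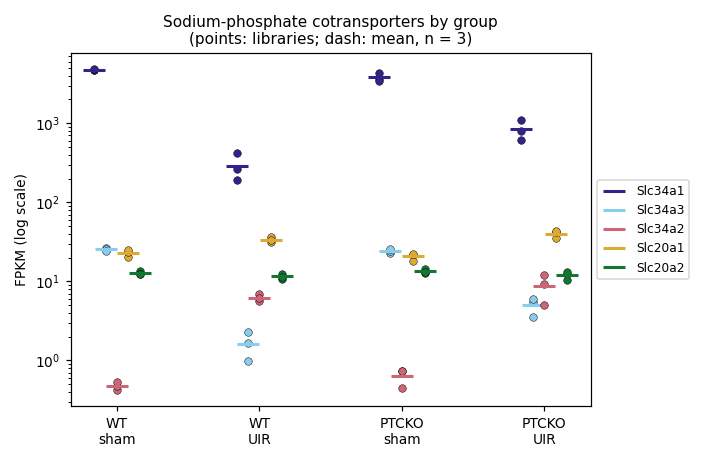
Levels of the 5 sodium-phosphate cotransporters in FPKM on a log scale, by group, with a point per library and a dash at the mean of 3. Slc34a1 and Slc34a3 drop after UIR and lie higher in PTCKO UIR than in WT UIR, whereas Slc34a2 climbs from under 1 FPKM after sham to between 5.05 and 11.9 FPKM after UIR; the small WT change of Slc20a1 is up by FPKM and down on the TMM scale.

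Sulfate is taken up from the tubule lumen by Slc13a1 (NaS1) and leaves the cell on the blood side through Slc26a1 (SAT1). Slc13a1 was at 167, 151 and 165 FPKM in WT sham, 42.1, 70.9 and 42.3 in WT UIR, 169, 151 and 175 in PTCKO sham and 139.9, 115 and 174 in PTCKO UIR. WT UIR libraries were far below all others, while PTCKO UIR overlapped PTCKO sham by FPKM. Slc13a1 fell by 2.35 in WT and by 0.71 in PTCKO (edgeR adjusted p = 0.00543, a call lost without scaling, with limma on FPKM and with TPM), and PTCKO exceeded WT after UIR by 1.54 (SE 0.20, adjusted p = 0.000811). The interaction was 1.63 (adjusted p = 0.00373).

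Slc26a1 was at 72.0, 76.5 and 72.9 FPKM in WT sham, 7.79, 13.2 and 7.55 in WT UIR, 75.8, 68.8 and 87.0 in PTCKO sham and 21.7, 19.9 and 28.1 in PTCKO UIR, with no overlap between sham and UIR or between the genotypes after UIR. It fell by 3.65 in WT and 2.25 in PTCKO, with an interaction of 1.40 (edgeR adjusted p = 0.00662). The locus of Slc26a1 shares 8503 bases with Idua, and as no source states the strandedness of counting, reads of the pair could have been mixed.

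Citrate and other dicarboxylates enter proximal cells through Slc13a2 (NaDC1) in the brush border and Slc13a3 (NaDC3) on the basolateral side. Slc13a3 had the lowest log2 fold change of the 55 tested genes in WT, -5.02 (SE 0.29, edgeR adjusted p = 2.77e-09), and fell by 3.54 in PTCKO. Its levels were 478, 434 and 378 FPKM in WT sham, 14.2, 20.1 and 30.5 in WT UIR, 360.0, 294 and 291 in PTCKO sham and 28.6, 41.1 and 46.5 in PTCKO UIR. After UIR the libraries of the genotypes overlapped for Slc13a3, and PTCKO was 0.91 higher (adjusted p = 0.0294), a call lost without WT UIR 1 (0.69), WT UIR 2 (0.86) or PTCKO UIR 3 (0.73). The interaction of 1.48 passed (adjusted p = 0.0128).

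Slc13a2 was at 54.8, 44.5 and 70.8 FPKM in WT sham, 13.1, 12.6 and 8.70 in WT UIR, 66.8, 61.1 and 56.6 in PTCKO sham and 16.1, 17.5 and 24.2 in PTCKO UIR. All 3 PTCKO UIR libraries were above all 3 WT UIR libraries (log2 fold change 0.88, SE 0.19, edgeR adjusted p = 0.00802). The interaction of 0.81 (adjusted p = 0.0394) held only without WT sham 2, PTCKO UIR 1 or PTCKO UIR 2 and was lost on leaving out any of the other 9 libraries (0.60 to 0.89), without scaling, with limma on FPKM or TPM and with the replicate block.

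Bicarbonate is reclaimed by apical proton secretion, chiefly through Slc9a3 (NHE3; chromosome 13, 74086255 to 74169442), and basolateral exit through Slc4a4 (NBCe1; chromosome 5, 88793858 to 89239656). Slc9a3 was at 15.3, 17.1 and 11.7 FPKM in WT sham, 1.10, 2.10 and 1.28 in WT UIR, 21.6, 23.9 and 22.3 in PTCKO sham and 3.44, 3.20 and 5.89 in PTCKO UIR. It fell by 3.99 in WT and 2.94 in PTCKO, and PTCKO was above WT in every library pair in both surgeries, by 0.50 in the sham groups (edgeR adjusted p = 0.163) and by 1.55 in the UIR groups (SE 0.27, adjusted p = 0.00266). The interaction of 1.05 (adjusted p = 0.048) was kept without WT sham 3, WT UIR 2 or PTCKO UIR 2 and lost without any of the other 9 libraries (0.68 to 1.19), and also under the 4 alternatives that ended the call of Slc13a2.

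Slc4a4 was at 77.4, 73.4 and 60.0 FPKM in WT sham, 10.5, 18.9 and 12.1 in WT UIR, 80.3, 73.6 and 87.6 in PTCKO sham and 27.9, 25.9 and 34.2 in PTCKO UIR. UIR and sham libraries did not overlap, nor did the genotypes after UIR. The falls of 3.05 in WT and 1.97 in PTCKO differed (interaction 1.09, SE 0.27, edgeR adjusted p = 0.0157), and PTCKO was 1.16 higher after UIR (adjusted p = 0.00232).

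Slc9a8 (NHE8; chromosome 2, 167421599 to 167477000), an exchanger of the brush border and of intracellular membranes, departed from the other proximal genes. Its levels were 18.9, 20.7 and 23.1 FPKM in WT sham, 8.69, 9.05 and 7.54 in WT UIR, 40.9, 61.2 and 39.5 in PTCKO sham and 10.8, 11.3 and 10.7 in PTCKO UIR. The PTCKO sham libraries were all above the WT sham libraries, the highest being PTCKO sham 2, and the genotypes were closer after UIR. Slc9a8 was the proximal member called in PTCKO against WT after sham (1.03, SE 0.14, edgeR adjusted p = 0.00275), and without PTCKO sham 2 the difference was 0.82 and still passed. After UIR it fell by 1.99 in WT and 2.60 in PTCKO. The interaction of -0.60 (adjusted p = 0.0445), opposite in sign to the 8 other proximal interactions that passed, was lost on leaving out any PTCKO UIR library, PTCKO sham 2, or library 1 or 2 of either WT group (-0.61 to -0.39) and with DESeq2 size factors.

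Slc26a6 (CFEX), an apical chloride-oxalate exchanger, was at 3.11, 2.62 and 2.12 FPKM in WT sham, 3.39, 2.92 and 3.30 in WT UIR, 1.90, 2.53 and 2.41 in PTCKO sham and 3.22, 3.09 and 2.79 in PTCKO UIR. Its fall of 0.42 in WT on the TMM scale (edgeR adjusted p = 0.0179) was 0.22 to 0.39 upward without scaling, with FPKM and with TPM. In PTCKO the UIR change was -0.10 (adjusted p = 0.542). PTCKO differed from WT by -0.33 after sham and by -0.01 after UIR, and neither passed.

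The 8 proximal genes called higher in PTCKO after UIR were Slc34a1, Slc34a3, Slc13a1, Slc13a2, Slc13a3, Slc26a1, Slc4a4 and Slc9a3, and the count was 8 also without scaling, with DESeq2 size factors, with limma on FPKM and with TPM. The DESeq2 Wald test called 9, adding Slc9a8 (0.44, adjusted p = 0.0268), and on leaving out each library the count was 7 to 9, with Slc9a8 added when PTCKO sham 2 was omitted (adjusted p = 0.00991). Markers of the proximal tubule moved with them. The summed FPKM of Lrp2, Cubn, Slc5a2, Slc22a6 and Slc7a13 went in WT from 1145 to 1288 after sham to 48.5 to 114 after UIR, and in PTCKO from 1140.2 to 1319 after sham to 168 to 251 after UIR. All 5 were lower in every UIR than every sham library, 4 of 5 were higher in every PTCKO UIR than every WT UIR library, and none was at 0. Macrophage markers (Adgre1, Cd68, C1qb and Ptprc) summed to 24.9 to 35.3 after sham, 1194 to 1718 in WT UIR and 918 to 1191 in PTCKO UIR. All 4 were higher in every UIR than every sham library, and 2 of 4 were lower in every PTCKO UIR than every WT UIR library. The part of these markers in the transporter values was not tested.

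**Figure D3:**
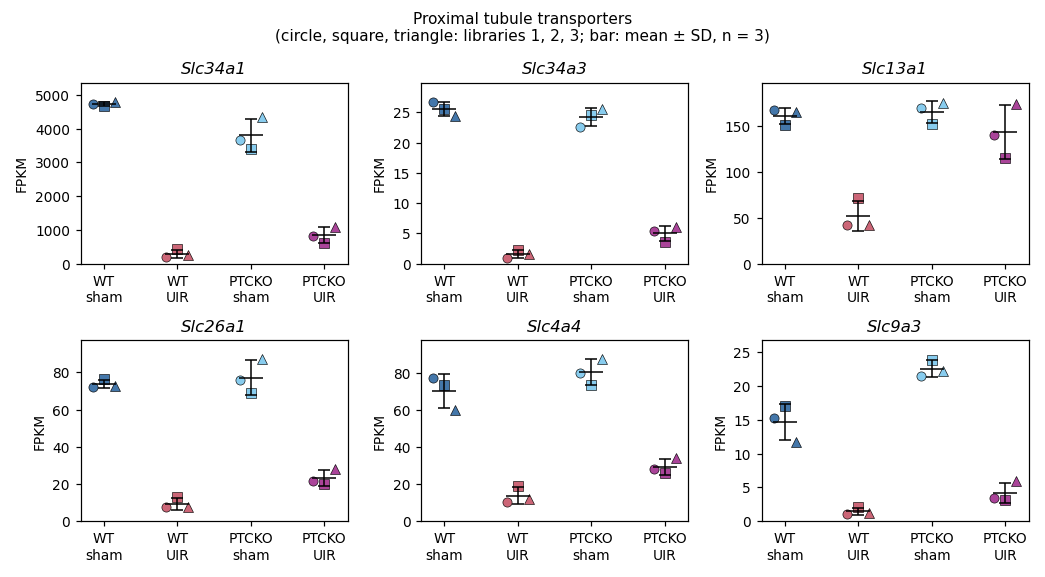
FPKM by group for 6 proximal transporters, with a symbol per library (circle, square and triangle for libraries 1, 2 and 3) and bars for the mean ± SD of 3. In each panel the WT UIR libraries are lowest and the PTCKO UIR libraries lie above them; for Slc13a1 PTCKO UIR reaches the sham range.

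Genes that act with these carriers were counted in lists chosen by function. The counts of each list below stand beside these shares of all genes tested. After UIR 36.4% were called lower and 42.1% higher in WT, and 34.8% and 39.0% in PTCKO. For PTCKO against WT 5.23% were called higher and 5.50% lower after sham, and 9.30% and 4.50% after UIR. The interaction was called positive for 14.4% and negative for 7.08%. Whether a list departs from these shares was not tested. Of 8 tested genes of phosphate control, 7 fell and 1 rose in WT after UIR (median -2.22), 6 fell and 1 rose in PTCKO (-1.55), and 5 were higher in PTCKO than WT after UIR with 5 positive interactions. Pth1r, the parathyroid hormone receptor that lowers brush border phosphate uptake, had a mean of 350.2 ± 14.6 FPKM in WT sham, 71.5 ± 6.84 in WT UIR, 294 ± 18.8 in PTCKO sham and 135 ± 17.1 in PTCKO UIR (SD, n = 3). PTCKO was 0.98 above WT after UIR (edgeR adjusted p = 0.000689). Pdzk1, a scaffold of the brush border, was at 70.6 ± 18.7 FPKM in WT UIR and 156 ± 23.7 in PTCKO UIR (1.21, adjusted p = 0.00125), and Vdr, the vitamin D receptor, at 16.9 ± 3.45 and 29.6 ± 5.06 (0.88, adjusted p = 0.00272).

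The list for bicarbonate reclamation, 8 genes, had 7 lower in WT (median -2.12), 7 lower and 1 higher in PTCKO (-1.30), and 5 higher in PTCKO after UIR. Car4, the membrane-bound carbonic anhydrase of the brush border, was at 292 ± 10.2 FPKM in WT sham, 19.5 ± 5.66 in WT UIR, 226 ± 19.9 in PTCKO sham and 49.9 ± 14.1 in PTCKO UIR (SD, n = 3). PTCKO exceeded WT by 1.43 after UIR (edgeR adjusted p = 0.00161), with an interaction of 1.93 (adjusted p = 0.00266). Ahcyl2, known to bind NBCe1, fell by 2.41 in WT and 1.96 in PTCKO, and the related Ahcyl1 by 1.38 and 1.07. The interaction passed for Ahcyl2 (0.45, adjusted p = 0.0258) and not for Ahcyl1 (0.31, adjusted p = 0.0612).

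In the thick ascending limb, sodium chloride enters through Slc12a1 (NKCC2; chromosome 2, 125152510 to 125230002), the target of loop diuretics. Slc12a1 was at 79.0, 79.6 and 85.8 FPKM in WT sham, 106, 135 and 78.2 in WT UIR, 151, 267 and 139 in PTCKO sham and 46.7, 76.9 and 64.8 in PTCKO UIR. The PTCKO sham libraries were all above every other library, every PTCKO UIR library was below every WT UIR library, and WT sham and WT UIR overlapped. The genotype difference of Slc12a1 after UIR, -0.69, did not pass (edgeR adjusted p = 0.0837). It passed without PTCKO sham 2 (-0.69, edgeR adjusted p = 0.035), with the replicate block (-0.69) and with the DESeq2 Wald test (-0.68, adjusted p = 0.0344). In WT the UIR change did not pass and its sign depended on scaling (-0.33 with TMM, 0.39 without scaling, 0.35 with limma on FPKM). In PTCKO Slc12a1 fell by 2.08 (SE 0.26, edgeR adjusted p = 6.84e-06). The interaction was -1.75 (SE 0.35, adjusted p = 0.00675), the opposite sign to the proximal genes, and was -1.40 without PTCKO sham 2, where it still passed.

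The genotype difference of Slc12a1 after sham, 1.06 (SE 0.25, edgeR adjusted p = 0.0243), rested on which libraries were kept. It was lost without PTCKO sham 2 (0.71) and without WT sham 1 (1.03), WT sham 2 (1.02) or WT sham 3 (1.12). In 8 of the 12 genes listed for thick limb salt reabsorption, PTCKO sham 2 was the highest PTCKO sham library. The 12 genes summed to 2980 FPKM there against 2047 and 1662 in PTCKO sham 1 and 3, with 1434 to 1668 in WT sham. Umod alone was at 1856 FPKM in PTCKO sham 2, against 1007 and 709 in PTCKO sham 1 and 3. By FPKM, 9 of the 12 genes were higher in every PTCKO sham than every WT sham library, and 1 was lower. The part of tissue make-up, in PTCKO sham 2 or in PTCKO sham as a group, in the Slc12a1 difference was not tested. After UIR the list summed to 623 to 877 in WT and 618 to 917 in PTCKO.

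Of the same 12 genes, 10 were lower and 1 higher in WT after UIR (median -1.0) and 11 lower in PTCKO (-1.67). Egf, a thick limb and distal growth factor, fell from 209 ± 45.8 to 6.86 ± 1.66 FPKM in WT (SD, n = 3), the claudin Cldn10 from 238 ± 16.6 to 80.6 ± 5.68, and the potassium channel subunit Kcnj16 from 153 ± 10.9 to 57.9 ± 12.6. None of these 3 was called between genotypes after sham or UIR (edgeR adjusted p = 0.0695 to 0.504). After sham 1 gene, Bsnd, the chloride channel subunit barttin, was higher in PTCKO (0.69, adjusted p = 0.0114), and 4 had negative interactions, among them Bsnd (-0.80), the calcium receptor Casr (-0.83) and Cldn16 (-0.77). These 3 are named because they passed, after their values were seen.

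**Figure D4:**
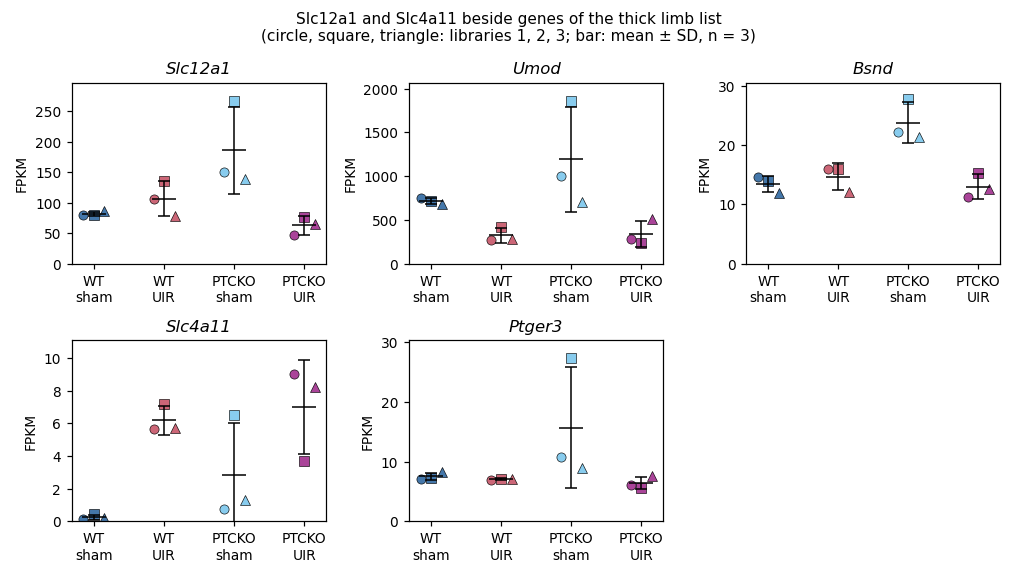
FPKM by group of Slc12a1, Slc4a11 and 3 genes of the thick limb list (Umod, Bsnd, Ptger3), with a symbol per library and bars for the mean ± SD of 3. In all 5 panels the square of PTCKO sham, library 2, is the highest PTCKO sham library, and for Slc12a1 the other 2 also lie above WT sham.

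The other 4 transporters listed for the thick limb, none limited to it, each went their own way. Slc9a2 (NHE2), an apical exchanger, was at 14.9, 10.9 and 9.68 FPKM in WT sham, 7.08, 8.07 and 5.64 in WT UIR, 8.63, 9.88 and 9.47 in PTCKO sham and 5.12, 7.92 and 6.13 in PTCKO UIR. It fell by 1.48 in WT and 1.06 in PTCKO with no overlap. Slc9a4 (NHE4), a basolateral exchanger involved in ammonium handling, was at 0.63, 0.67 and 0.69 FPKM in WT sham, 6.24, 6.31 and 5.21 in WT UIR, 0.51, 0.38 and 0.45 in PTCKO sham and 4.06, 6.85 and 2.79 in PTCKO UIR. Slc9a4 rose by 2.44 in WT and 2.82 in PTCKO (SE 0.26 and 0.28), without overlap of sham and UIR.

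Slc4a7 (NBCn1), a sodium-bicarbonate cotransporter, was at 0.98, 0.88 and 0.82 FPKM in WT sham, 3.06, 3.13 and 3.10 in WT UIR, 1.04, 1.13 and 1.25 in PTCKO sham and 3.12, 3.10 and 2.78 in PTCKO UIR, and rose by 1.07 in WT and 0.87 in PTCKO. Slc4a2 (AE2), a basolateral chloride-bicarbonate exchanger of many epithelia, was at 13.9, 13.6 and 13.1 FPKM in WT sham, 29.5, 28.3 and 26.6 in WT UIR, 15.7, 17.4 and 13.8 in PTCKO sham and 25.3, 25.9 and 22.2 in PTCKO UIR. On the TMM scale it rose by 0.33 in WT (edgeR adjusted p = 0.00233), and by 0.12 in PTCKO, which did not pass with TMM but did without scaling. None of the 4 was called between genotypes after sham or UIR or in the interaction with TMM. The interaction of Slc4a2, -0.21 with TMM, passed without scaling, with limma on FPKM and with TPM.

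Sodium chloride uptake in the distal convoluted tubule runs through Slc12a3 (NCC; chromosome 8, 94329109 to 94366222), the thiazide target, and calcium leaves those cells by Slc8a1 (NCX1). Slc12a3 was at 259.6, 246 and 203 FPKM in WT sham, 33.6, 42.2 and 39.9 in WT UIR, 241, 187 and 236 in PTCKO sham and 48.4, 54.4 and 85.5 in PTCKO UIR. Sham and UIR did not overlap in either genotype, and every PTCKO UIR library was above every WT UIR library. The fall was 3.32 in WT (SE 0.22, edgeR adjusted p = 9.5e-09) and 2.33 in PTCKO (SE 0.21, adjusted p = 3.13e-07). PTCKO was 0.78 above WT after UIR (adjusted p = 0.0233), a call lost without WT UIR 1 (0.69), WT UIR 3 (0.83) or PTCKO UIR 3 (0.46), and the interaction of 0.99 (adjusted p = 0.0275) was lost without WT sham 1 (0.92), WT UIR 1 (0.90) or PTCKO sham 2 (0.88) and with limma on FPKM or TPM.

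Slc8a1 was at 9.12, 7.94 and 6.72 FPKM in WT sham, 3.50, 3.45 and 3.21 in WT UIR, 8.09, 7.06 and 8.34 in PTCKO sham and 3.93, 3.74 and 5.21 in PTCKO UIR. It fell by 1.94 in WT and 1.38 in PTCKO, and neither the genotype difference after UIR (0.42, edgeR adjusted p = 0.0695) nor the interaction (0.56, adjusted p = 0.059) passed. Of the segment's markers, Pvalb spanned 28.1 to 49.4 FPKM (WT sham), 0.11 to 0.33 (WT UIR) and 0.34 to 2.15 (PTCKO UIR). Of Pvalb and Trpm6, 1 was lower and 1 higher by FPKM in every UIR than every sham library in both genotypes. The part of these markers in the Slc12a3 values was not tested.

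The WNK-SPAK kinases and their adaptors set the phosphorylation of Slc12a1 and Slc12a3. Of 11 genes of this list, 7 fell and 2 rose in WT (median -0.84) and 8 fell in PTCKO (-0.97). In all 3 genotype comparisons, after sham, after UIR and in the interaction, 0 were called by edgeR or by the DESeq2 test, with 1, 1 and 2 at an unadjusted edgeR p under 0.05. Without scaling 1 was higher after sham and 2 had negative interactions, and with TPM these were 3 and 4 of 9 tested. Wnk4, a kinase, was at 50.9 ± 0.599 FPKM in WT sham and 35.4 ± 5.98 in WT UIR (SD, n = 3). Klhl3, the ubiquitin ligase adaptor for WNK kinases, went from 9.11 ± 0.385 to 3.04 ± 0.644, and the SPAK-binding Cab39l from 22.0 ± 1.53 to 16.3 ± 0.801. In PTCKO the same 3 genes had log2 fold changes of -1.26, -1.95 and -0.99.

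**Figure D5:**
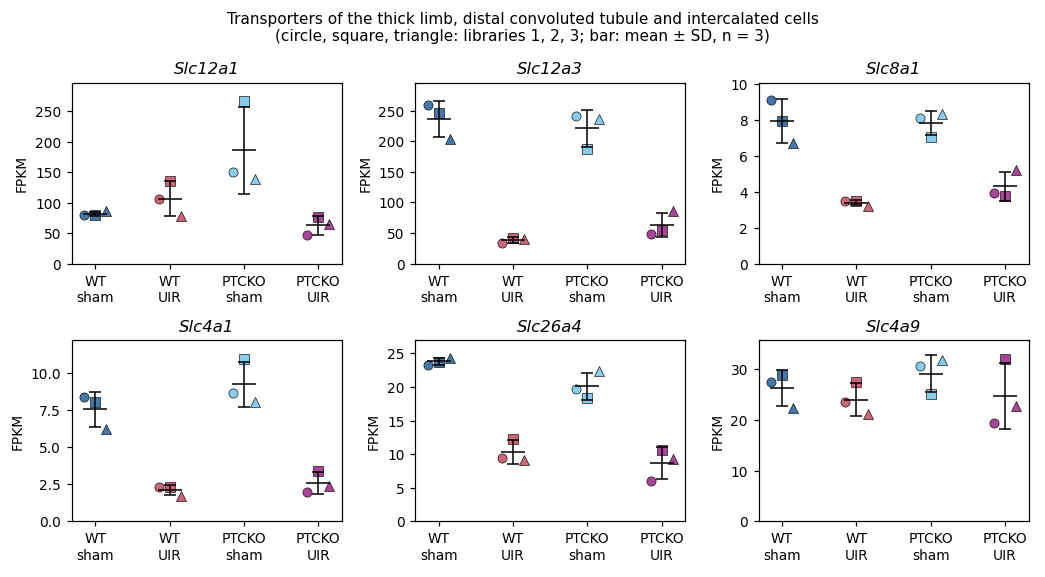
FPKM by group for Slc12a1, Slc12a3, Slc8a1, Slc4a1, Slc26a4 and Slc4a9, with a symbol per library and bars for the mean ± SD of 3. Slc12a3, Slc8a1, Slc4a1 and Slc26a4 are lower in both UIR groups; Slc4a9 overlaps between all groups by FPKM, although it was called lower on the TMM scale.

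Intercalated cells exchange chloride for bicarbonate through Slc4a1 (AE1; chromosome 11, 102348820 to 102365281) in the acid-secreting type and Slc26a4 (pendrin; chromosome 12, 31519814 to 31560055) in the base-secreting type. Slc4a1 was at 8.39, 7.99 and 6.21 FPKM in WT sham, 2.31, 2.31 and 1.72 in WT UIR, 8.63, 10.9 and 8.03 in PTCKO sham and 1.96, 3.39 and 2.36 in PTCKO UIR. UIR libraries lay below all sham libraries, and the falls of 2.54 in WT and 2.35 in PTCKO (SE 0.18 in each) were not told apart by the test (interaction 0.19, edgeR adjusted p = 0.622). Slc4a1 is also band 3 of red cells. The summed FPKM of 12 erythroid genes spanned 1096 to 1318 (WT sham), 722 to 1599 (PTCKO sham), 2174 to 4094 (WT UIR) and 1321 to 4902 (PTCKO UIR). Of the 9 tested 1 was called, higher, in WT and 2 each way in PTCKO. Those called higher in PTCKO were Epb42 (0.85) and Ermap (0.74). Those called lower were Hbb-b1 (-6.42) and Hbb-b2 (-6.70), the haplotype pair that stayed under 10 FPKM in all 3 PTCKO UIR libraries. In WT after UIR Ermap rose (0.90, edgeR adjusted p = 0.0129), while Alas2 (0.68) and Epb42 (-0.53) did not pass. Globin genes made up 99.53% to 99.75% of the sum. In WT the UIR libraries, which were lower in Slc4a1, had the higher erythroid sums, and in PTCKO the sums of sham and UIR libraries overlapped. The part of red cell RNA in Slc4a1 was not tested.

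Slc26a4 was at 23.3, 23.8 and 24.3 FPKM in WT sham, 9.48, 12.3 and 9.05 in WT UIR, 19.7, 18.3 and 22.3 in PTCKO sham and 6.02, 10.7 and 9.33 in PTCKO UIR. It fell by 1.93 in WT and 1.73 in PTCKO. The 3 PTCKO sham libraries were below the 3 WT sham libraries without passing (-0.37, edgeR adjusted p = 0.14). Slc4a9 (AE4), found in the base-secreting type, was at 27.6, 29.0 and 22.3 FPKM in WT sham, 23.5, 27.5 and 21.1 in WT UIR, 30.6, 25.1 and 31.8 in PTCKO sham and 19.4, 32.1 and 22.8 in PTCKO UIR; its falls of 0.85 and 0.76 on the TMM scale were lost without scaling and with limma on FPKM, and in WT turned to 0.04 with TPM.

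Slc12a7 (KCC4), a basolateral potassium-chloride cotransporter, was at 30.1, 28.8 and 26.7 FPKM in WT sham, 17.6, 17.6 and 13.8 in WT UIR, 32.3, 28.8 and 32.4 in PTCKO sham and 20.2, 21.5 and 21.6 in PTCKO UIR. It fell by 1.52 in WT and 1.09 in PTCKO, and PTCKO was higher after UIR by 0.44 (edgeR adjusted p = 0.00904). With TPM this call was lost. Its interaction of 0.43 (adjusted p = 0.0392) was kept only without WT UIR 2 or PTCKO UIR 2 and was lost on leaving out any of the other 10 libraries (0.34 to 0.48), without scaling, and with limma on FPKM or TPM.

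Slc12a2 (NKCC1), the secretory relative of Slc12a1, was at 5.08, 5.42 and 4.68 FPKM in WT sham, 7.83, 8.07 and 7.50 in WT UIR, 6.20, 5.51 and 6.13 in PTCKO sham and 6.67, 7.31 and 7.43 in PTCKO UIR. On the TMM scale it changed by -0.08 in WT and fell by 0.25 in PTCKO (edgeR adjusted p = 0.0111), signs that turned to 0.54 to 0.73 and 0.23 to 0.27 without scaling, with FPKM and with TPM. Slc26a11, an anion exchanger, was at 4.66, 4.56 and 4.38 FPKM in WT sham, 7.70, 6.93 and 6.86 in WT UIR, 5.06, 4.81 and 5.56 in PTCKO sham and 7.02, 6.03 and 6.63 in PTCKO UIR, with 0.01 in WT and -0.13 in PTCKO on the TMM scale. Under the same alternatives the WT value became a called rise of 0.56 to 0.75 and the PTCKO value turned to 0.30 to 0.38. Slc4a8 (NDCBE) was at 0.50, 0.58 and 0.49 FPKM in WT sham, 1.46, 1.65 and 1.15 in WT UIR, 0.68, 0.73 and 0.56 in PTCKO sham and 1.35, 1.45 and 1.28 in PTCKO UIR and rose by 0.74 and 0.53.

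Slc26a7, an anion exchanger, stayed below 1 FPKM, at 0.12, 0.06 and 0.13 FPKM in WT sham, 0.55, 0.57 and 0.53 in WT UIR, 0.15, 0.38 and 0.25 in PTCKO sham and 0.31, 0.30 and 0.21 in PTCKO UIR. In WT every UIR library exceeded every sham library (1.63, SE 0.36, edgeR adjusted p = 0.000869), in PTCKO the groups overlapped (-0.43, adjusted p = 0.257), and the interaction was -2.06 (SE 0.49, adjusted p = 0.013). At these levels a library holds few reads of the gene.

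Of 10 genes of acid secretion by intercalated cells, 7 were lower and 3 higher in WT after UIR (median -1.0) and 7 lower in PTCKO (-0.69). PTCKO against WT after UIR had 1 called higher, Rhcg, and 3 lower: the pump subunits Atp6v0d2 (-0.96, edgeR adjusted p = 0.0022) and Atp6v1g3 (-0.44, adjusted p = 0.0229) and Foxi1 (-0.79, adjusted p = 0.0132), all 3 named after their values were seen. Rhcg, an ammonia channel, was at 78.0 ± 6.48 FPKM in WT sham, 33.0 ± 9.18 in WT UIR, 66.5 ± 3.33 in PTCKO sham and 50.2 ± 8.26 in PTCKO UIR (SD, n = 3). PTCKO was 0.66 higher after UIR (edgeR adjusted p = 0.0191). The proton pump subunit Atp6v0a4 went from 77.2 ± 10.8 to 35.3 ± 6.70 FPKM in WT and fell by 1.68 in PTCKO. Rhbg, a basolateral ammonia channel, fell by 1.76 in WT and was 0.68 lower in PTCKO than WT after sham (log2 fold change -0.68, adjusted p = 0.0147). Foxi1, the transcription factor of these cells, was at 12.1 to 19.2 FPKM in WT sham, 40.0 to 49.4 in WT UIR and 17.5 to 33.4 in PTCKO UIR. On the TMM scale Foxi1 rose in WT by 0.85 (edgeR adjusted p = 0.000955) and Atp6v0d2 by 0.93, the opposite direction to Slc4a1 and Slc26a4. Atp6v1g3, also a marker of these cells, fell in WT (-0.27, adjusted p = 0.0474). The 7 genes of the list that were lower in WT went the same way as Slc4a1 and Slc26a4.

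The 29 transporters with no single segment were mostly low: 15 reached 1 FPKM in 3 libraries, and the highest value was 43.3 FPKM, of Slc20a1. Those called higher after UIR in both genotypes numbered 10, among them the potassium-chloride cotransporter Slc12a4 (KCC1, 1.91 in WT and 1.53 in PTCKO) and the endosomal exchanger Slc9a9 (NHE9, 3.90 and 3.56). In both genotypes 3 were called lower. For calls shared by both genotypes no share of all genes was computed. Over the 25 tested genes the log2 fold changes ran from -3.44 (Slc13a5) to 4.93 (Slc26a3) in WT. Of the 25 tested, 6 were called in a comparison between genotypes or in the interaction. Among all genes, 10.7% were called after sham, 13.8% after UIR and 21.5% in the interaction. The share of all genes called in at least 1 of these was not computed, so the 6 cannot be set against it.

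Slc13a4 (NaS2), a second sodium-sulfate cotransporter, was at 3.51, 3.84 and 3.44 FPKM in WT sham, 0.54, 0.71 and 0.49 in WT UIR, 2.88, 2.72 and 2.48 in PTCKO sham and 0.99, 1.04 and 1.37 in PTCKO UIR. It was far less abundant than Slc13a1, with falls of 3.33 in WT and 1.76 in PTCKO, PTCKO 1.03 above WT after UIR (edgeR adjusted p = 0.00316) and an interaction of 1.57 (SE 0.24, adjusted p = 0.00231). After sham it was called lower in PTCKO (-0.54, adjusted p = 0.0396), a call kept only without WT UIR 2, WT UIR 3, PTCKO UIR 2 or PTCKO UIR 3 and lost on leaving out any of the other 8 libraries (-0.61 to -0.48), without scaling, with TPM and with limma at a pseudocount of 0.1.

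Slc4a11, a membrane transporter related to the bicarbonate carriers, was at 0.11, 0.42 and 0.21 FPKM in WT sham, 5.63, 7.17 and 5.72 in WT UIR, 0.75, 6.48 and 1.32 in PTCKO sham and 9.03, 3.69 and 8.25 in PTCKO UIR. WT sham stayed under 0.5 FPKM and all UIR libraries were at 3.69 or more. PTCKO sham 2 alone among sham libraries was inside the UIR range. The rise in WT was 3.94 (SE 0.78, edgeR adjusted p = 0.000385). The difference after sham of 3.41 (adjusted p = 0.0248) was 1.98 and not called without PTCKO sham 2, and was also lost without WT sham 1 (3.04) or WT sham 3 (3.38) and with limma on log2(FPKM + 1). The interaction of -3.14 (adjusted p = 0.0396) was -1.72 and not called without PTCKO sham 2; it was lost on leaving out 8 of the 12 libraries in all, namely WT sham 1 or 3, any WT UIR library, PTCKO sham 2, and PTCKO UIR 1 or 3, and also with limma on log2(FPKM + 1) or TPM and with the replicate block.

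Slc9a9 was at 0.29, 0.44 and 0.19 FPKM in WT sham, 7.07, 6.68 and 8.72 in WT UIR, 0.24, 0.38 and 0.24 in PTCKO sham and 4.80, 4.92 and 4.79 in PTCKO UIR, with UIR and sham far apart. PTCKO was lower after UIR (-0.56, edgeR adjusted p = 0.0372), a call lost without any PTCKO UIR library, WT UIR 1, WT UIR 3 or WT sham 1 (-0.60 to -0.41). Slc26a2, a sulfate transporter of cartilage and other tissues, was at 0.40, 0.50 and 0.48 FPKM in WT sham, 0.84, 0.52 and 0.47 in WT UIR, 1.06, 0.96 and 1.01 in PTCKO sham and 0.52, 0.72 and 0.63 in PTCKO UIR. It was higher in PTCKO after sham (1.01, adjusted p = 0.0221) without overlap, and the call was lost without WT sham 1, WT sham 3 or any PTCKO sham library (0.92 to 1.06). Slc26a3 was at 0.03, 0 and 0 FPKM in WT sham, 0.50, 0.47 and 0.50 in WT UIR, 0, 0 and 0 in PTCKO sham and 0, 0.15 and 0.02 in PTCKO UIR. It was lower in PTCKO after UIR (-2.80, adjusted p = 0.015), a call lost without WT UIR 1 (-2.82) or PTCKO UIR 3 (-2.40) and resting on reads that were few in every library.

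The 2 scaffolds that tether Slc9a3 and Slc34a1 to the brush border moved in opposite ways in WT. Slc9a3r1 (NHERF1) was at 202, 204 and 207 FPKM in WT sham, 75.5, 84.5 and 78.9 in WT UIR, 211, 208 and 228 in PTCKO sham and 129.8, 106 and 142 in PTCKO UIR. It fell by 2.07 in WT and 1.29 in PTCKO, and PTCKO was higher after UIR by 0.73 (SE 0.12, edgeR adjusted p = 0.00197), with no overlap and an interaction of 0.79 (adjusted p = 0.00798). Slc9a3r2 (NHERF2), also found in glomeruli and vessels, was at 35.7, 35.9 and 32.6 FPKM in WT sham, 95.4, 84.7 and 82.8 in WT UIR, 38.6, 42.5 and 36.5 in PTCKO sham and 61.6, 70.7 and 53.1 in PTCKO UIR. It rose by 0.64 in WT on the TMM scale, did not pass in PTCKO (0.16, adjusted p = 0.146, called without scaling), and was lower in PTCKO after UIR (-0.43, adjusted p = 0.0078).

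The interaction of Slc9a3r2 was -0.49 (edgeR adjusted p = 0.0211), lost without WT UIR 1 (-0.43), PTCKO sham 2 (-0.44) or PTCKO UIR 3 (-0.42). Endothelial markers (Pecam1, Kdr and Cdh5) summed to 24.0 to 30.3 FPKM (WT sham), 29.4 to 34.5 (PTCKO sham), 63.9 to 69.4 (WT UIR) and 42.2 to 49.2 (PTCKO UIR). In the same order the podocyte markers Nphs1 and Podxl summed to 26.9 to 38.2, 35.6 to 40.7, 75.7 to 82.6 and 56.7 to 74.8. All 3 endothelial markers and, of these 2, Nphs1 were lower in every PTCKO UIR than every WT UIR library, and none of the 5 was at 0. Pecam1 and Cdh5 were higher in every UIR than every sham library of each genotype, and Kdr was not. Kdr was at 7.79 to 10.2 FPKM in WT sham and 9.78 to 10.8 in WT UIR. In PTCKO it was lower after UIR, at 6.21 to 8.72 FPKM against 9.01 to 11.2 after sham. The part of these endothelial and podocyte markers in the Slc9a3r2 values was not tested. The adaptor Slc4a1ap (kanadaptin) was at 6.79, 6.33 and 7.11 FPKM in WT sham, 10.9, 10.6 and 10.7 in WT UIR, 6.36, 6.88 and 6.85 in PTCKO sham and 9.33, 10.0 and 8.21 in PTCKO UIR and was not called in any comparison on the TMM scale, where its UIR changes were -0.08 and -0.10; these turned to 0.60 to 0.79 and 0.40 to 0.45 without scaling, with FPKM and with TPM.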

How the data were processed

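The authors deposited 1 table, which gives each gene expected counts, FPKM and TPM in all 12 libraries. Per the file headers the first are read counts, and as many values were not whole they were taken as estimated (RSEM) counts. The deposited FPKM and TPM correct for transcript length and library size, by the definition of these units. Bowtie2, RSEM, DESeq2 and the GRCm38.p6 build are listed in the submitters' processing notes. Libraries were grouped by title, and 0 count columns were left without a library.

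Expected counts were rounded, filtered with filterByExpr, scaled with TMM and fitted in edgeR 4.0.16 (R 4.3.3) by quasi-likelihood, with two-sided tests, over all 12 libraries with 1 coefficient per group (8 residual degrees of freedom). P-values were adjusted by Benjamini-Hochberg over all 15322 genes tested. The procedure was also run on simulated counts in which a small set of genes was changed in PTCKO UIR alone. Its outcome is not given here. That setting lacks a UIR change in most genes and cannot show how scaling acts on such a change. The planned design gave edgeR where counts were present and limma otherwise. Alternatives were DESeq2 1.42.0 size factors and Wald test, no scaling, no filter, limma 3.58.1 on log2(FPKM + 1), log2(FPKM + 0.1) and log2(TPM + 1), a replicate block, and leaving out each library.

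The rule for the members, which reads symbols only, and the segments, lists and alternatives were chosen with earlier results of these data known. Segment members with at least 1 FPKM in 3 libraries are given in every library, other members where called between genotypes, and up to 3 genes per partner list by smallest p in WT UIR against sham; exceptions (Slc20a1, Slc34a2, scaffolds, and the genes said to be chosen after their values were seen) complete a family. A few members, partner genes and markers that these rules would name are not reported here, although counts and sums over lists other than the podocyte markers include them. The markers Umod, Pvalb and Foxi1 were also named beside results. Gene coordinates and promoters are from RefSeq, with motifs searched on both strands of 250 bases. Replicate numbers did not pair the libraries (correlation of same-numbered deviations -0.089 to 0.179).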

Additional observations from a re-analysis of the deposited data

Results flagged for a closer look

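The response to UIR was not the same in PTCKO and WT libraries for 18 of the 55 tested genes, by the interaction term of edgeR at an adjusted p under 0.05, beside 21.5% of all genes tested. The values are differences of log2 fold changes, PTCKO minus WT. In the proximal tubule they were 1.96 for Slc34a1, 1.87 for Slc34a3, 1.63 for Slc13a1, 1.48 for Slc13a3, 1.40 for Slc26a1, 1.09 for Slc4a4, 1.05 for Slc9a3 and 0.81 for Slc13a2, and the value for Slc9a8 was -0.60. Downstream they were -1.75 for Slc12a1, 0.99 for Slc12a3, 0.43 for Slc12a7 and -2.06 for Slc26a7. The remaining genes were Slc13a4 at 1.57, Slc20a1 at 0.53, Slc4a11 at -3.14, Slc9a3r1 at 0.79 and Slc9a3r2 at -0.49. The WT or PTCKO libraries on which the calls of Slc12a3, Slc12a7, Slc13a2, Slc20a1, Slc4a11, Slc9a3, Slc9a3r2 and Slc9a8 depend are named with their values above, and the other 10 calls were kept on leaving out each library in turn.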

How the results depend on the processing

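For UIR against sham in PTCKO, 27 genes were called higher without scaling and 26 with limma on unfiltered FPKM, against 16. For PTCKO against WT after sham, genes called higher were 2 with limma on FPKM, against 4. Genes called lower there were 0 without scaling, with limma at a pseudocount of 0.1 or unfiltered, with TPM and with the replicate block, and 2 with the DESeq2 test, against 1. After UIR, genes lower in PTCKO were 1 with limma at a pseudocount of 0.1 and 5 unfiltered, against 3. Positive interactions were 8 with limma on FPKM at either pseudocount, on unfiltered FPKM or on TPM, against 13, and negative ones 10 without scaling, 10 with TPM and 8 with unfiltered FPKM, against 5; those added without scaling included Slc12a2, Slc12a4, Slc26a2 and Slc4a2. Leaving out each library gave 18 to 20 higher and 22 to 24 lower for UIR in WT, 14 to 16 and 24 to 25 for UIR in PTCKO, 1 to 4 and 0 to 2 for PTCKO against WT after sham, 10 to 15 and 1 to 4 after UIR, and 8 to 14 and 2 to 5 for the interaction. The largest relative shifts were in the small counts: genes higher after sham fell to 1 without WT sham 1, WT sham 3 or PTCKO sham 2. Replicate numbers did not pair the libraries. With the replicate as a block the calls lost were those of Slc12a8 for UIR in WT, Slc13a4 after sham, Slc9a9 after UIR, and Slc13a2, Slc4a11 and Slc9a3 in the interaction, and Slc12a1 was gained after UIR (-0.69). Over all alternatives, 4751 of 5292 values of the 52 tested members reported here kept direction and call, 188 lost the call and 89 gained it. Of 264 sign changes, 215 had a call on neither side, Slc12a1 in WT among them, and 49 had one.

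The 49 sign changes with a call were all in UIR against sham, and each gene below had a negative fold change on the TMM scale. The values are given without scaling, with limma on log2(FPKM + 1), with the pseudocount of 0.1, with unfiltered FPKM and with TPM. In WT they were 0.63, 0.54, 0.62, 0.54 and 0.73 for Slc12a2, 0.19, 0.078, 0.12, 0.078 and 0.21 for Slc12a8, 0.55, 0.54, 0.56, 0.54 and 0.72 for Slc20a1, 0.29, 0.22, 0.30, 0.22 and 0.39 for Slc26a6, and 0.63, 0.60, 0.66, 0.60 and 0.79 for Slc4a1ap. With TPM alone they were 0.019 for Slc20a2 and 0.043 for Slc4a9. In PTCKO they were 0.27, 0.23, 0.26, 0.23 and 0.26 for Slc12a2, 0.38, 0.30, 0.34, 0.30 and 0.33 for Slc26a11, 0.41, 0.30, 0.40, 0.30 and 0.36 for Slc26a6, and 0.42, 0.40, 0.45, 0.40 and 0.44 for Slc4a1ap, and for Slc12a5 0.49 without scaling and 0.16 with unfiltered FPKM. These alternatives leave out the TMM factors, which shift the median of all genes; no other cause of a change was tested.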
